A study of Homo sapiens with 3 samples.

Results

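The 10 genes described here are p53 target genes, or partners of such genes, with roles in redox balance and metabolism: TP53I3, TIGAR, SESN1, SESN2, SESN3, FDXR, FDX1, TP53INP1, GLS2 and CMBL. They were taken by gene name from a table of ribosome footprint counts that lists 63241 genes, and all 10 passed the filter on low counts that left 19820 genes for testing. Ribosome profiling (Ribo-seq) sequences the stretches of mRNA that ribosomes protect from nuclease, so a gene's footprint count follows both the amount of its mRNA and how densely ribosomes sit on it, and the 2 cannot be told apart here. As these are bulk samples, fewer cells that use a gene and less RNA per cell cannot be told apart either.

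The cells were HEK293T, a human embryonic kidney line with the large T antigen of SV40 (the viral protein binds p53, and all groups share it), and they expressed a p53 construct that was wild type (WT), G245S or R273H. The study's methods describe lines made with lentivirus and selected with puromycin, whereas the labels speak of both stable and transient expression, and the treatment label of the mutant samples names the wt construct; the groups follow the sample titles. No cells without a p53 construct were analysed here. All 9 dishes (3 per group) received cycloheximide for 2 min, and the monosome fraction was taken after digestion of the lysates by micrococcal nuclease (3 U per µg RNA, 30 min). The 3 dishes of a group were pooled at reverse transcription, so a difference between groups and a difference between pools cannot be told apart, and the p-values measure the spread between dishes. Total counts lay between 18719200 and 24595400 per library (to the nearest 100), and were higher in each R273H library than in any other. Levels are given in CPM (counts scaled to the size of the library, with TMM factors) for each dish, and differences as log2 fold changes with their standard error (SE) from a fit of all tested genes (edgeR quasi-likelihood test, two-sided), where called genes had an adjusted p (Benjamini-Hochberg) under 0.05.

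p53 is a transcription factor that binds DNA as a tetramer at pairs of 10-base half-sites, and both G245S and R273H lie in its DNA-binding domain. Besides arrest and death genes, it switches on genes that handle oxidants and redirect metabolism: quinone and glycolytic enzymes, the sestrins, which restrain mTORC1 and act against peroxides, and the reductase that feeds electrons to the mitochondrial ferredoxins. FDX1 takes electrons from FDXR and was included as its partner.

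Footprints of 9 of the 10 genes were lower in both mutants than in WT, and the ferredoxin FDX1 did not pass the test in either. In G245S 9 members were called lower and 0 higher, where 12.1% of all tested genes were called lower and 12.6% higher. In R273H it was again 9 lower and 0 higher, against 14.6% and 14.2% of all tested genes. The median log2 fold change of the members was -1.02 in G245S and -0.99 in R273H, and over all tested genes it was -0.00069 and -0.0024. The members' medians lie between the values of SESN1 and TIGAR, and that of TIGAR is uncertain, as described below. Summed with an overlapping gene, TIGAR had -0.575 in G245S and -0.497 in R273H. Both comparisons use the same WT dishes. In those 9 members every WT dish was above every mutant dish, an order that 13.4% of all tested genes had. The decreases ranged from 16.3-fold and 18.2-fold for TP53I3 to 1.32-fold and 1.30-fold for SESN3. CDKN1A and MDM2, p53 targets outside this group of genes that serve as a reference, had log2 fold changes of -1.92 and -3.48 in G245S and of -2.14 and -3.49 in R273H, all called lower.

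**Figure D1:**
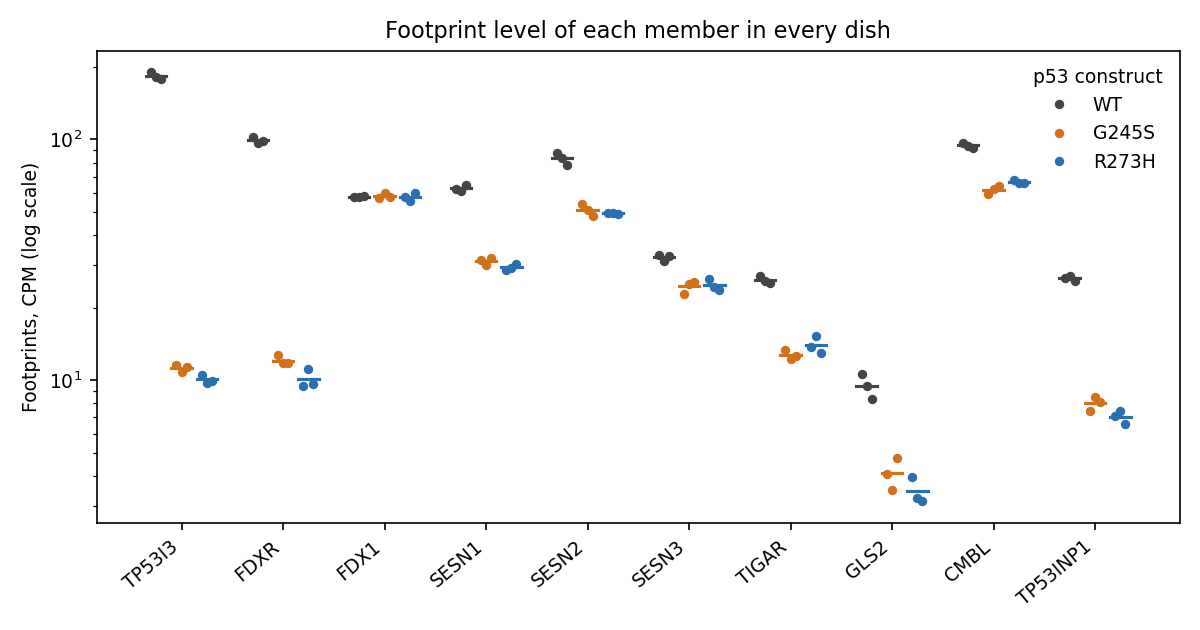
Footprint level (CPM, log axis) of each of the 10 members in every dish; points are dishes, bars the mean of 3 dishes, and colors the p53 construct. For 9 members all 3 WT points lie above all 6 mutant points, as in 13.4% of all tested genes, while the 9 points of FDX1 lie between 55.7 and 60.0 CPM.

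The members stood at different levels in WT cells, which were compared per kilobase (kb) of coding sequence. TP53I3 had the highest level at 184 ± 5.95 CPM per kb (SD, n = 3 dishes), followed by CMBL at 128 ± 2.75, FDX1 at 105 ± 0.942, FDXR at 67.3 ± 2.05 and SESN2 at 57.8 ± 3.56 CPM per kb. SESN1 (37.9 ± 1.08) and TP53INP1 (36.9 ± 0.806 CPM per kb) came next and overlapped between dishes. TIGAR (32.2 ± 1.18), SESN3 (22 ± 0.61) and GLS2 (5.26 ± 0.617 CPM per kb) closed the order. The place of TIGAR is uncertain in every group. An overlapping gene on its strand, ENSG00000285901, had a mean of 100.3 CPM in WT against 26.07 for TIGAR. How shared reads were split between these 2 rows is not stated. In G245S cells FDX1 led at 105 ± 3.03 CPM per kb, ahead of CMBL at 84.2 ± 3.19, and TP53I3 stood at rank 7 of the 10 with 11.3 ± 0.421 CPM per kb, overlapping TP53INP1 at 11.1 ± 0.751. In R273H cells the same pair led, with FDX1 at 105 ± 3.89 and CMBL at 90.4 ± 1.48 CPM per kb, and TP53I3 was again at rank 7, with 10.1 ± 0.406 CPM per kb. GLS2 was the lowest member in every group.

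Because p53 acts through paired half-sites, the DNA around the members' start sites was searched for the p53 half-site consensus on the strand of the gene; that consensus is its own reverse complement, so both strands are covered. Within 5000 bases on either side of the start of the canonical transcript (GENCODE v44, GRCh38), a pair of exact half-sites with at most 13 bases between them was found in 258 of 20041 protein-coding genes (1.29%) and, among the 10 members, in TIGAR alone, at 402 bases downstream of the start in intron 1 and with a spacer of 2 bases. Adjacent half-sites with up to 2 mismatches outside the fixed core letters were found in 1006 genes (5.02%), among them GLS2 (29 bases downstream of the start, in exon 1) and CMBL (299 bases downstream, in intron 1 of the canonical transcript). In the RefSeq promoter table (GRCh38.p14; 250 bases before to 50 after a start), which holds 8 of the 10 members, an exact half-site was present in 2329 of 35116 promoters (6.63%), including those of FDXR, 11 bases before the start, and of a downstream start of SESN1, 49 bases before it. In each of these last sequences the 10 bases beside the half-site (before it in FDXR, after it in SESN1) had 3 mismatches to the consensus. The share of 6.63% counts promoters, not genes, and FDXR and SESN1 also have promoters in that table without an exact half-site. A match describes the letters only, and these data hold no measurement of p53 binding. TP53I3, SESN1, SESN2, SESN3, FDXR, FDX1 and TP53INP1 had no pair of either kind in the window. TP53I3, which fell the most, had 1 exact half-site in the window and none in its promoter. Sites with more mismatches were not searched for, so the absence of a match does not show the absence of a p53 site. The matched sequences are shown 5′ to 3′ on the strand of the gene with half-sites in capitals.
TIGAR, chr12:4321595-4321656, plus strand: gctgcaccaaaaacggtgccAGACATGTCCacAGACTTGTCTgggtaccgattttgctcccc
FDXR, chr17:74872996-74873025, minus strand: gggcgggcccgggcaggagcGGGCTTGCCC
SESN1, chr6:109009013-109009042, minus strand: cgtctGGACAAGTCTccacaagtcagaaat
GLS2, chr12:56488113-56488132, minus strand: AGGCTTGCTGGGGCATGCGC
CMBL, chr5:10307584-10307603, minus strand: ACACAAGCCCACACAAGCCC

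TP53I3, a quinone oxidoreductase linked to the production of reactive oxygen species, fell further than the other members in both mutants. Its gene (ENSG00000115129) lies on chromosome 2, positions 24077433 to 24085861, minus strand (GRCh38, GENCODE v44, as for all positions given here). Footprints stood at 190, 182 and 178 CPM in the WT dishes, at 11.6, 10.8 and 11.3 CPM in the G245S dishes and at 10.5, 9.73 and 9.95 CPM in the R273H dishes. The mutant dishes thus kept 6.12% and 5.49% of the mean WT level and did not overlap with it. The log2 fold change was -4.03 for G245S, with SE 0.0489 and an adjusted p of 2.2e-30, and -4.19 for R273H, with SE 0.0477 and an adjusted p of 4.4e-31, at rank 13 and rank 9 from the lowest among all tested genes. Counts ranged from 212 to 3833 per library, so the low level in the mutants still rests on over 200 footprints in each dish. CRYZ, a related quinone reductase, had log2 fold changes of 0.02 and 0.06 (adjusted p = 0.735 for G245S and 0.262 for R273H). Within a dish, the ratio of TP53I3 to CRYZ per kb of coding sequence was between 1.62 and 1.87 in WT, between 0.101 and 0.108 in G245S and between 0.088 and 0.0967 in R273H. Of 10 listed quinone and enone reductases other than TP53I3, 8 were tested; the calls were 1 lower and 0 higher for G245S, 2 and 0 for R273H, and the medians of the log2 fold changes were 0.03 and 0.0013. NQO1, the quinone reductase of the NRF2 pathway, was called lower in both, with log2 fold changes of -0.32 and -0.25.

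FDXR, the flavoprotein that passes electrons from NADPH to mitochondrial ferredoxins, fell 8.23-fold and 9.84-fold, while its electron acceptor FDX1 stood at 100.4% and 99.77% of the WT mean. FDXR (ENSG00000161513; chromosome 17, positions 74862497 to 74873031, minus strand) was at 103, 96.9 and 98.0 CPM in the WT dishes, 12.7, 11.7 and 11.8 in those with G245S, and 9.46, 11.2 and 9.60 in those with R273H. Mutant and WT dishes did not overlap, and the log2 fold change was -3.04 for G245S, with SE 0.0573 and an adjusted p of 1.1e-25, and -3.30 for R273H, with SE 0.0566 and an adjusted p of 8.8e-27.
FDX1 (ENSG00000137714; chromosome 11, positions 110429948 to 110464884, plus strand), the ferredoxin that serves steroid hydroxylases and protein lipoylation, was at 57.4, 57.8 and 58.4 CPM in the WT dishes, 56.8, 60.0 and 57.6 in those with G245S, and 57.7, 55.7 and 59.9 in those with R273H. The 3 groups overlapped. Its log2 fold changes were 0.0063 (95% interval -0.08 to 0.09, adjusted p = 0.938) and -0.0038 (-0.09 to 0.08, adjusted p = 0.960).

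FDX2, the second mitochondrial ferredoxin and a paralog of FDX1 used in iron-sulfur cluster assembly, was called lower in both mutants, with log2 fold changes of -0.22 and -0.27 (adjusted p = 0.0315 for G245S and 0.00513 for R273H); the G245S call was lost in 8 of 18 alternative settings, among them without WT replicate 1 or 3 or G245S replicate 1 or 3 (adjusted p from 0.0519 to 0.254), and the R273H call in 3. Per kb of coding sequence, FDXR stood at 0.642 ± 0.0240 times the level of FDX1 in the same dish in WT (SD, n = 3), at 0.0779 ± 0.00544 times in G245S and at 0.0655 ± 0.00829 times in R273H. FDX1 stood at 2.41 ± 0.149 times the level of FDX2 in WT, 2.81 ± 0.281 times in G245S and 2.89 ± 0.0650 times in R273H. Of 20 listed ferredoxin partners and iron-sulfur assembly genes, 18 were tested; the calls were 5 lower and 1 higher for G245S, 4 and 1 for R273H, and the medians of the log2 fold changes were -0.00063 and 0.04. ISCU, the scaffold on which iron-sulfur clusters are built, had the largest change of those called in both mutants, with log2 fold changes of -0.86 and -0.88.

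**Figure D2:**
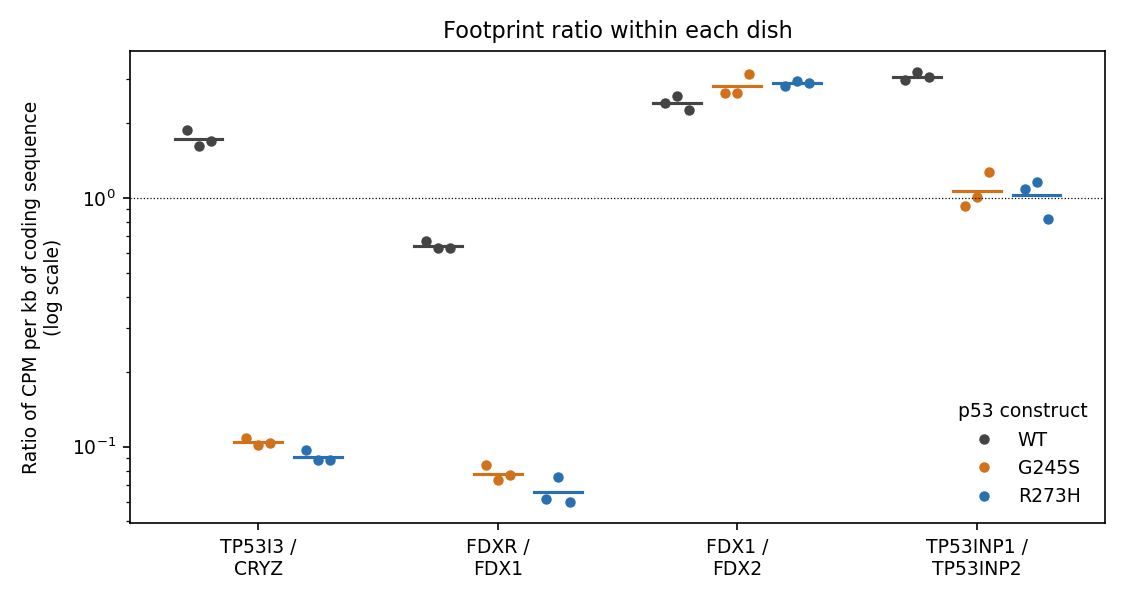
Ratio of footprints per kb of coding sequence between members and their paralogs or partners within each dish (log axis); points are dishes and bars means of 3. The ratios TP53I3 to CRYZ, FDXR to FDX1 and TP53INP1 to TP53INP2 are lower in all 6 mutant dishes than in any WT dish, and FDX1 to FDX2 is higher, at 2.65 to 3.14 against 2.26 to 2.56.

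The sestrins are stress-induced proteins that bind GATOR2, an activator of mTORC1, and work with AMP-activated kinase (AMPK); SESN2 also senses leucine. All 3 fell in both mutants, SESN1 the most and SESN3 the least. SESN1 (ENSG00000080546; chromosome 6, positions 108984309 to 109094846, minus strand) was at 62.2, 61.0 and 64.5 CPM in the WT dishes, 31.7, 30.0 and 32.2 in those with G245S, and 28.7, 29.4 and 30.2 in those with R273H, so that the mutants stood at 49.99% and 47.03% of WT. Its log2 fold change was -1 for G245S, with SE 0.0479 and an adjusted p of 8.8e-16, and -1.09 for R273H, with SE 0.0468 and an adjusted p of 6e-17.
SESN2 (ENSG00000130766; chromosome 1, positions 28259518 to 28282491, plus strand) was at 88.1, 83.9 and 77.9 CPM in the WT dishes, 53.9, 50.7 and 48.0 in those with G245S, and 49.6, 49.2 and 49.1 in those with R273H. The log2 fold change was -0.715 for G245S, with SE 0.0469 and an adjusted p of 2.2e-12, and -0.76 for R273H, with SE 0.0457 and an adjusted p of 3.4e-13.
SESN3 (ENSG00000149212; chromosome 11, positions 95165513 to 95232541, minus strand), known also as a FOXO target, was at 33.1, 31.4 and 32.7 CPM in the WT dishes, 22.8, 25 and 25.7 in those with G245S, and 26.4, 24.5 and 23.6 in those with R273H. For each of the 3 genes the WT dishes were above the mutant dishes, as in 13.4% of all tested genes, and the dishes of the mutants overlapped. The log2 fold changes of SESN3 were -0.40 (SE 0.0605, adjusted p = 1.1e-05) and -0.38 (SE 0.0585, adjusted p = 1e-05). SESN3 was also the only member whose calls were lost in a test against a change of at least 1.2-fold (adjusted p = 0.0981 and 0.124; its adjusted p over 18 alternatives went from 7.93e-09 to 0.0981 for G245S and 2.09e-08 to 0.124 for R273H).

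Summed over the 3 sestrins, footprints per kb of coding sequence went from 118 ± 3.12 CPM per kb in WT to 70.8 ± 1.06 in G245S and 68.9 ± 0.754 in R273H (SD, n = 3). SESN1 made up 32.2% ± 1.48 of this sum in WT, 26.7% ± 0.998 in G245S and 25.9% ± 0.930 in R273H. The share of SESN3 was 18.7% ± 0.503, 23.4% ± 1.73 and 24.4% ± 1.16 in the same order, and that of SESN2 was 49.1% ± 1.94, 49.8% ± 2.25 and 49.7% ± 0.262. The shares of SESN1 and SESN3 in the mutants lay outside the range of the WT dishes. Of 16 GATOR and AMPK partners of the sestrins, all tested, the calls were 3 higher and 3 lower for G245S, 4 and 3 for R273H, and the medians of the log2 fold changes were 0.02 and 0.06. PRKAB1, an AMPK beta subunit that is itself a p53 target, had log2 fold changes of -1 and -0.96, and NPRL3 of GATOR1 had -0.20 and -0.22. PRKAG2, an AMPK gamma subunit, rose by 0.44 and 0.50, and MIOS of GATOR2 by 0.24 and 0.29.

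TIGAR lowers fructose-2,6-bisphosphate and so slows glycolysis in favor of the pentose phosphate pathway. Its gene (ENSG00000078237; chromosome 12, positions 4307763 to 4360028, plus strand) was counted at 27.1, 25.9 and 25.2 CPM in the WT dishes, 13.4, 12.2 and 12.5 in those with G245S, and 13.7, 15.3 and 13 in those with R273H. Every mutant dish was below every WT dish, and the mutants overlapped. The log2 fold change was -1.04 for G245S, with SE 0.0738 and an adjusted p of 8.3e-12, and -0.90 for R273H, with SE 0.0700 and an adjusted p of 5.7e-11. A second protein-coding gene annotated on the same strand, ENSG00000285901, overlaps TIGAR and had a mean of 100.3 CPM in the WT dishes, 72.1 in G245S and 75.5 in R273H, with log2 fold changes of -0.48 and -0.41 (adjusted p = 5.4e-11 for G245S and 6.5e-10 for R273H). Counts in both rows need not be whole, and how shared reads were split between them is not stated, so the value of TIGAR is uncertain. ENSG00000285901 spans positions 4273762 to 4405490 and so also overlaps CCND2 (4269771 to 4305353) on the same strand. Its row may therefore hold footprints from outside TIGAR, which limits the sum of both rows. With both rows summed, an alternative added after the data were seen, the levels were 131, 125 and 123 CPM in the WT dishes, 86.4, 81.6 and 86.3 in those with G245S, and 88.8, 91.6 and 88.2 in those with R273H, with fitted log2 fold changes of -0.575 and -0.497 (adjusted p = 2.98e-13 for G245S and 3.69e-12 for R273H). Of 15 listed enzymes of fructose phosphate and pentose phosphate metabolism, 13 were tested; the calls were 2 higher and 0 lower for G245S, 2 and 1 for R273H, and the medians of the log2 fold changes were 0.03 and -0.0026. The genes higher in both were PFKP, a phosphofructokinase (0.24 and 0.19), and TKT, transketolase (0.21 and 0.09).

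GLS2 is the mitochondrial glutaminase that p53 induces, and it turns glutamine into glutamate, a precursor of glutathione. It had the fewest counts of the members, between 68.9 and 214 per library. The gene (ENSG00000135423; chromosome 12, positions 56470944 to 56488414, minus strand) was at 10.6, 9.50 and 8.38 CPM in the WT dishes, 4.06, 3.5 and 4.76 in those with G245S, and 3.98, 3.23 and 3.14 in those with R273H. WT and mutant dishes did not overlap, and the log2 fold change was -1.20 for G245S, with SE 0.134 and an adjusted p of 7.2e-08, and -1.46 for R273H, with SE 0.133 and an adjusted p of 1.5e-09. Of 15 glutamine and glutathione enzymes, all tested, the calls were 7 higher and 3 lower for G245S, 6 and 2 for R273H, and the medians of the log2 fold changes were 0.07 and 0.05. GPX1, glutathione peroxidase 1, had log2 fold changes of -0.64 and -0.75, and GSS, glutathione synthetase, -0.15 and -0.25, the first of which was not called without WT replicate 1 (adjusted p = 0.0713). CHAC1, which degrades glutathione, rose by 0.89 and 0.84 from a low level of 1.85 CPM in WT, and the glutamine transporter SLC1A5 rose by 0.29 and 0.17.

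CMBL, a cytosolic hydrolase known for activating prodrug esters, had the smallest decreases after SESN3. Its gene (ENSG00000164237; chromosome 5, positions 10275875 to 10307902, minus strand) was at 96.5, 94.2 and 92.4 CPM in the WT dishes, 59.4, 62.2 and 64.0 in those with G245S, and 67.7, 66.2 and 65.6 in those with R273H. Mutant dishes stood at 65.6% and 70.4% of the WT mean, with no overlap. The log2 fold change was -0.61 for G245S, with SE 0.0384 and an adjusted p of 5.5e-13, and -0.51 for R273H, with SE 0.0370 and an adjusted p of 1.5e-11.

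TP53INP1, a stress protein that supports the phosphorylation of p53 and binds ATG8 proteins in autophagy, fell 3.31-fold and 3.76-fold. The gene (ENSG00000164938) lies on chromosome 8, positions 94925972 to 94949378, minus strand. Footprints were at 26.7, 27.1 and 25.9 CPM in the WT dishes, 7.42, 8.48 and 8.11 in those with G245S, and 7.11, 7.43 and 6.59 in those with R273H. All mutant dishes were below all WT dishes, and the log2 fold change was -1.73 for G245S, with SE 0.0803 and an adjusted p of 4.9e-16, and -1.91 for R273H, with SE 0.0789 and an adjusted p of 2.6e-17. TP53INP2, its paralog, had log2 fold changes of -0.20 and -0.31 (adjusted p = 0.259 for G245S and 0.0508 for R273H), and the second passed the threshold in 4 of 18 alternatives, among them without G245S replicate 3 (0.0369) or R273H replicate 3 (0.0176). The ratio of TP53INP1 to TP53INP2 per kb of coding sequence was 3.07 ± 0.116 in WT, 1.07 ± 0.175 in G245S and 1.02 ± 0.178 in R273H (SD, n = 3). Of 11 ATG8 family genes and partners of TP53INP1, 9 were tested; the calls were 3 lower and 1 higher for G245S, 4 and 0 for R273H, and the medians of the log2 fold changes were -0.11 and -0.10. GABARAPL2 (-0.26 and -0.23) and GABARAP (-0.18 and -0.26), both ATG8 proteins, had the largest changes among those called in both.

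**Figure D3:**
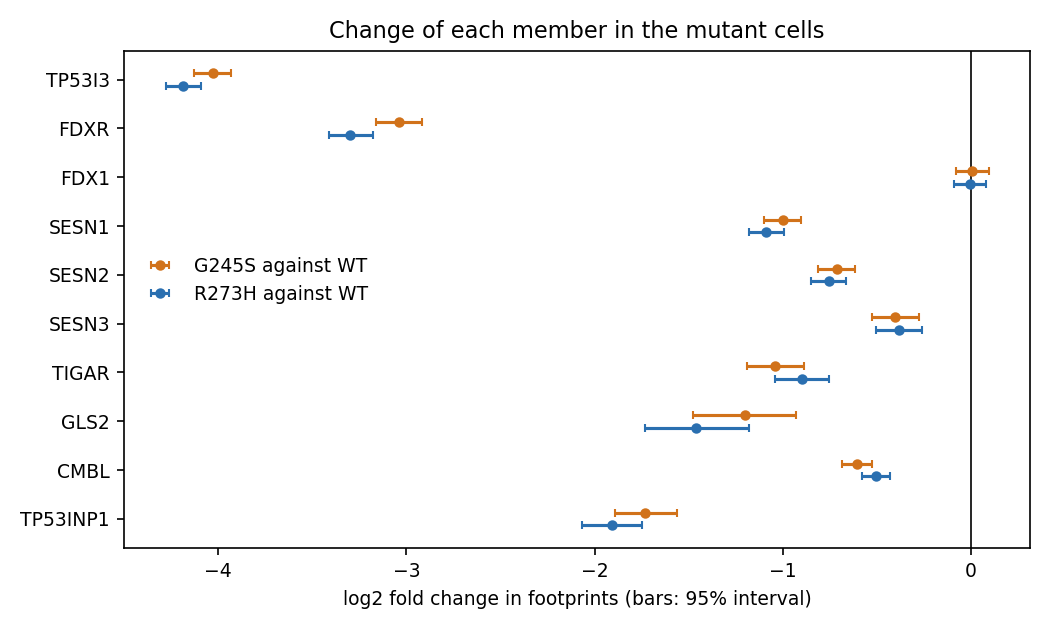
log2 fold change of footprints against WT for each member in G245S and R273H; points are estimates from the fit and bars their 95% intervals. Intervals lie below 0 for 9 members in both mutants, and those of FDX1 span 0.

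Between the mutants, 0 of the 10 members were called by edgeR, where 2.59% of all tested genes were called in either direction; 3 members had an unadjusted p under 0.05, as did 15.7% of all tested genes, and DESeq2 also called 0. FDXR was nearest to the threshold: G245S was higher than R273H by 0.26 on the log2 scale (95% interval 0.09 to 0.42, adjusted p = 0.0904), and the lowest G245S dish at 11.7 CPM stood above the highest R273H dish at 11.2 CPM. It was called with the dish number as a replicate block (adjusted p = 0.0486) and without R273H replicate 2 (difference 0.34, adjusted p = 0.0499); its adjusted p over 18 alternatives went from 0.0486 to 1. TP53I3 (difference 0.16, interval 0.00063 to 0.31, adjusted p = 0.315) and CMBL (-0.10, interval -0.18 to -0.02, adjusted p = 0.174) also had no overlap between the dishes of the mutants, so that 3 of the 10 members were without overlap, against 21.5% of all tested genes. CMBL was lower in G245S, whereas TP53I3 and FDXR were lower in R273H. The interval of the difference was -0.07 to 0.09 for FDX1 and -0.06 to 0.14 for SESN2, and for GLS2, which had the fewest counts, it was wider, at -0.06 to 0.57.

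**Figure D4:**
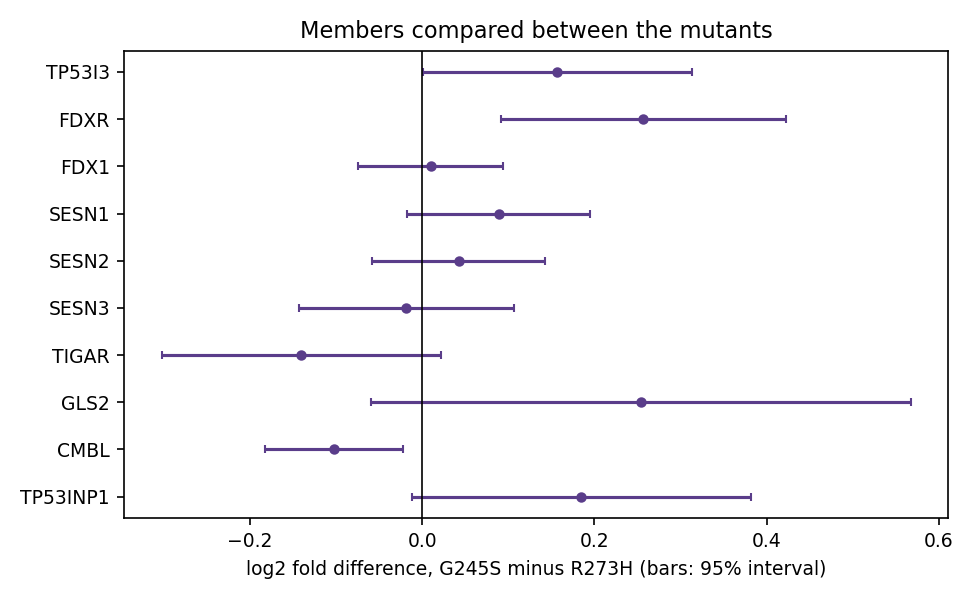
Difference between G245S and R273H (log2 fold difference, with 95% interval) for each member; positive values mean more footprints in G245S. The intervals of FDXR, TP53I3 and CMBL do not include 0, and no adjusted p is under 0.05.

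Annotated genes around the members were compared next. No source used here gives the strand setting of the counts, so footprints of a member and of a gene on its other strand cannot be told apart where they overlap. Of 11 annotated genes that overlap a member, 6 were tested. In each mutant 3 were called lower and 0 higher, where 12.1% (G245S) and 14.6% (R273H) of all tested genes were called lower. The genes called lower were ENSG00000285901 at TIGAR, NDUFAF6 on the other strand of TP53INP1 (-0.53 and -0.61), and SPRYD4 on the other strand of GLS2 (-0.32 and -0.31). NDUFAF6 is a complex I assembly factor. FAM228B, on the other strand of TP53I3, was at 1.81 CPM in WT and was not called (adjusted p = 0.730 and 0.777).

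Of the 20 nearest protein-coding neighbors, 17 were tested; the calls were 6 lower and 3 higher for G245S and 4 and 3 for R273H. GRIN2C, an NMDA receptor subunit gene that lies 993 bases from FDXR on its strand, had 20.1, 28.0 and 27.2 counts in WT, 1, 1 and 3.03 in G245S and 3, 3.01 and 3 in R273H, and was called lower in both (adjusted p = 7.2e-07 and 9.2e-07); with so few counts no fold change is given. MIP, 1778 bases from GLS2 on its strand, had 10.9 to 16.0 counts in WT, 2 to 8 in G245S and 4 to 12.3 in R273H, and was called lower in G245S (adjusted p = 0.0161, a call lost in 5 of 17 alternatives, among them without WT replicate 2 or 3 or G245S replicate 1 or 2, with values from 0.0536 to 0.0972) but not in R273H (adjusted p = 0.0606, and 0.0468 without R273H replicate 2). CCND2, 2410 bases from TIGAR, rose by 0.24 and 0.22 on the log2 scale, and SF3B6, 1060 bases from TP53I3, by 0.13 and 0.15, where the call of SF3B6 in G245S was lost in 5 of 18 alternatives, among them without WT replicate 1 or 2 or G245S replicate 2 or 3 (adjusted p from 0.0567 to 0.08). CEP57L1, 264 bases from SESN1 on the other strand, had log2 fold changes of -0.19 and -0.07 (adjusted p = 0.0248 for G245S and 0.444 for R273H), and the first call was lost in 7 of 18 alternatives, among them without WT replicate 2 or 3 or G245S replicate 3 (adjusted p from 0.074 to 0.194).

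Among 22 other p53 targets in metabolism, all tested, the calls were 10 lower and 4 higher for G245S, 10 and 3 for R273H, and the medians of the log2 fold changes were -0.21 and -0.20. The largest decreases called in both were in PANK1, which makes coenzyme A (29.3 CPM in WT, 9.39 in G245S and 10.3 in R273H; log2 fold changes -1.64 and -1.51), and PLTP, a phospholipid transfer protein (126, 50.2 and 46 CPM; -1.33 and -1.45). The largest increases were in SLC7A11, the cystine transporter that p53 is known to repress (11, 17 and 15.7 CPM; 0.63 and 0.52), and HK2, hexokinase 2 (0.16 and 0.19). GPX1, PRKAB1, PRKAB2, PFKFB3 and SOD2 stand both in this list and in others above or in the closing observations, so the lists are not independent. The medians of the 7 other lists lay between -0.11 and 0.07 in both mutants.

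**Figure D5:**
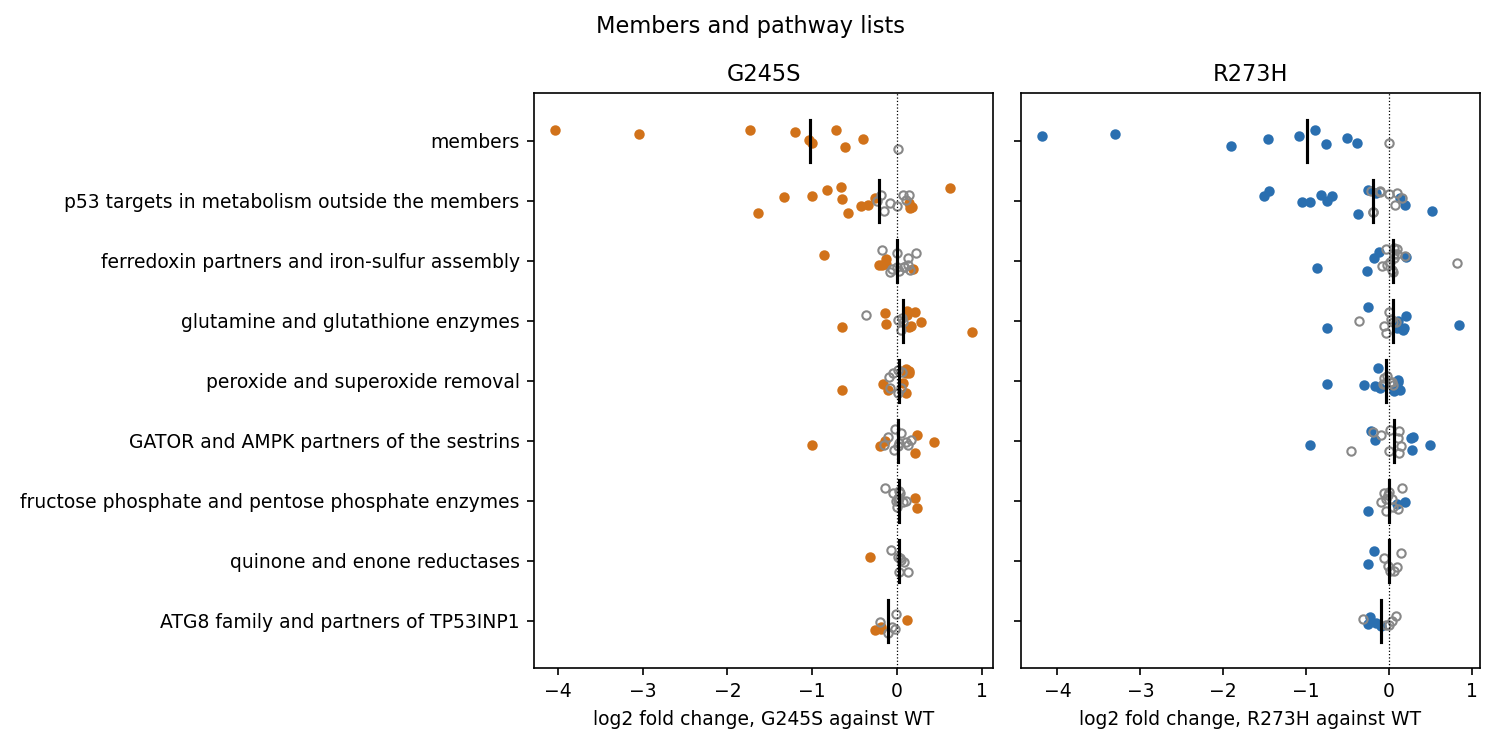
log2 fold change against WT of each tested gene in the members and in 8 pathway lists; filled points passed the test, open points did not, and black bars mark the median. The members' medians (-1.02 and -0.99) lie below those of every list, of which the p53 targets in metabolism are lowest (-0.21 and -0.20). The members' medians lie between SESN1 and TIGAR, and the value of TIGAR is uncertain.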

How the data were processed

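Ribo-seq footprints were taken from 9 dishes of HEK293T cells (3 groups of 3). Per the study's methods, the authors trimmed reads with Trim Galore, extracted molecular identifiers with UMI-tools where present, removed rRNA with SortMeRNA and aligned to GRCh38 with STAR. The deposited values are expected counts per gene (estimated counts that need not be whole), not normalized by the authors; 61.5% to 63.7% of nonzero values per library were not whole, and the counting tool, strand setting and annotation are not given in the sources used here. Of the 63241 genes, 62666 (99.09%) matched GENCODE v44. Expected counts were rounded and fitted with edgeR 4.0.16 in R 4.3.3 (TMM, filterByExpr, robust quasi-likelihood, group as the only term, 6 residual degrees of freedom). The biological coefficient of variation was 2.58%. Intervals are 95%. Alternatives were RLE and upper-quartile scaling, no filter, DESeq2 1.42.0, a 1.2-fold threshold, only the 6 libraries compared, each dish left out, a replicate block, and an offset for GC content and coding length.

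The members and the pathway lists were chosen with earlier results of these data known, so counts over them are descriptions. Named genes are the 10 members, their paralogs, overlapping and nearest protein-coding genes, CDKN1A and MDM2, and in each list the 2 largest increases and 2 largest decreases, by the mean of both mutants, among genes called in both in 1 direction. Dishes of a group differed by more than sampling noise. The footprints of the p53 gene itself and some other results are not reported here.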

Additional observations from a re-analysis of the deposited data

How the results depend on the processing

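Against WT, 9 members were called in each mutant in the main analysis and in every alternative except the test against a 1.2-fold change, which called 8 in each, without SESN3. No member changed direction where it was called. Leaving out 1 dish gave 9 and 9. Between the mutants 0 members were called, 1 with the replicate block (FDXR), and 0 to 1 when 1 dish was left out (FDXR, without R273H replicate 2).

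Over all genes, 4900 were called for G245S and 5707 for R273H, each against WT, and 513 between the mutants. The 1.2-fold test gave 547, 693 and 3. Leaving out 1 dish gave 3899 to 4850, 4526 to 5829 and 162 to 712; the last count fell by over 1.5 times without G245S replicate 1 (162) or 2 (204) or R273H replicate 1 (222), 2 (233) or 3 (295). The offset for GC content and coding length moved the share of lower calls in G245S against WT from 49.0% to 36.4%, with the 9 members still called lower, and the 1.2-fold test moved it the other way, to 64.9%, and for R273H from 50.8% to 61.3%. For R273H against WT the offset moved the share of lower calls from 50.8% to 44.2%. Between the mutants the no-filter fit moved this share from 28.3% to 41.6%. The offset and DESeq2 moved it the other way, to 19.5% and 20.3%.

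Deviations of same-numbered dishes correlated weakly, and positively in all 9 pairs, at 0.0437 to 0.234 over 12656 genes. Those of other dishes correlated at -0.189 to 0.0595 (18 pairs). The main fit had no term for the dish number. With the replicate block 5779 genes were called for G245S against WT, 6547 for R273H against WT and 1262 between the mutants. Block and offset together gave 967 between the mutants. The cause of these moves was not tested. Against WT, other named genes lost 49 calls in G245S and 41 in R273H over all alternatives. They gained 6 and 5, and the result stayed the same in 841 and 851 cases.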

Other observations

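The 16 listed enzymes of peroxide and superoxide removal, a list that shares GPX1 and GPX4 with the glutathione enzymes, were tested without exception. In G245S 6 were called higher and 3 lower, and in R273H 4 higher and 5 lower, with median log2 fold changes of 0.03 and -0.04. Of those called in both mutants, GPX1 had the largest decrease, with means of 150.1 ± 6.82 CPM in the WT dishes, 96.3 ± 6 in those with G245S and 89.3 ± 5.19 in those with R273H (SD, n = 3), followed by PRDX5, a peroxiredoxin, with log2 fold changes of -0.17 and -0.30. SOD2, the mitochondrial superoxide dismutase, rose by 0.14 and 0.13, and TXNRD1, cytosolic thioredoxin reductase, by 0.11 and 0.11. PRDX5 was also called between the mutants, at 0.13 higher in G245S (edgeR quasi-likelihood test, adjusted p = 0.0148), a call lost without G245S replicate 1 (adjusted p = 0.125), R273H replicate 1 (0.0743) or R273H replicate 2 (0.111) and in the 1.2-fold test (1). TKT and SLC1A5, which rose in both mutants, were also called between them, at 0.11 and 0.12 higher in G245S (adjusted p = 0.00631 and 0.00422); both calls were lost in the 1.2-fold test and without G245S replicate 2 (0.0589 and 0.0528), and that of TKT also without G245S replicate 1 (0.0777).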
